A study of Homo sapiens with 12 samples.

Results

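Transcript levels of 10 genes, for enzymes that build phosphatidylcholine or use S-adenosylmethionine (SAM) to methylate small molecules and protein ends, were followed in HEK293T and R1 cells with and without methionine. The genes were taken by symbol from the table of 23500 genes, and each of the 10 symbols had 1 entry. They were PEMT, the choline kinases CHKA and CHKB, the cytidylyl transferases PCYT1A and PCYT2, the terminal phosphotransferases CEPT1 and CHPT1, and the methyltransferases NNMT, GAMT and ICMT. Of the 10, 9 passed the filter of at least 10 counts summed over the 12 libraries, and NNMT did not.

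HEK293T is a human embryonic kidney line that carries the SV40 large T antigen and depends on methionine for proliferation. R1 is a methionine-independent clone isolated from HEK293T, so that any R1 value describes 1 clone and not methionine independence in general. Each line was kept for 12 h with methionine (+Met) or with its precursor homocysteine instead (−Met+Hcy), and each of the 4 groups has 3 libraries. All 4 groups received dialyzed serum, glutamine, cysteine and vitamin B12, the cofactor for making methionine from homocysteine. The labels of the R1 libraries also give HEK293T as cell line, and the titles were followed. Neither the labels nor the methods of the study say whether replicates were separate cultures, so the p-values measure the spread between these libraries only, which may be technical. In such bulk RNA, a change in RNA per cell and a change in the share of cells that express a gene cannot be told apart.

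Phosphatidylcholine, the main phospholipid of most mammalian membranes, is made by parallel routes. In the Kennedy pathway, choline is phosphorylated by CHKA or CHKB, activated to CDP-choline by the rate-limiting cytidylyl transferase PCYT1A, and joined to diacylglycerol by CHPT1 or CEPT1. PCYT2 catalyses the matching activation step of ethanolamine, and CEPT1 also makes phosphatidylethanolamine. PEMT, best known in liver, converts phosphatidylethanolamine into phosphatidylcholine by successive methylations, each of which consumes SAM. GAMT makes creatine from guanidinoacetate, NNMT methylates nicotinamide, and ICMT methylates the carboxyl end of prenylated proteins, each also with SAM as donor.

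Library totals lay between 12664158 and 18771349 counts (median 15588478). The neuronal intermediate filament gene NEFL, typical of HEK293-derived lines, was at 45.7 to 92.6 counts-per-million (CPM) of the library total in all 12 libraries. Of the other HEK293 markers, NEFM was at 7.61 to 72.5 CPM and INA at 6.38 to 29.9 CPM. PAX2 was at only 0.205 to 6.06 CPM. Of 8 markers of other cell types none exceeded 2.28 CPM, the highest value of the fibroblast marker DCN, whose range overlapped that of PAX2. R1 −Met+Hcy replicate 3 stood apart from every other library. The Spearman correlation across 11043 genes between GC content and level relative to the other libraries of its group was -0.74 there. It was -0.34 to 0.73 elsewhere (11 libraries). The highest, 0.60 and 0.73, were replicates 1 and 2 of the same group, whose comparison includes replicate 3. Outside that group the highest was 0.54. For R1 −Met+Hcy replicate 3, the chi-square per gene against the other libraries of its group was 214 and 245. Other pairs within a group gave 7.37 to 94.6. The common dispersion of the model was 0.109 with this library and 0.0349 without it. Results are therefore given with and without it. Scaling mattered as well. Log2 fold changes below use TMM factors (trimmed mean of M-values, which centre the bulk of the genes), and scaling by library totals instead moved the median log2 fold change of all genes from 0.03 to 0.33 in the medium comparison of HEK293T cells. It moved that median from 0.02 to 0.37 between the lines in +Met. CPM values are relative to the library total and carry no TMM factor.

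Across all 12 libraries, none of the 9 tested genes passed an adjusted p-value of 0.05 in any of the 5 comparisons (edgeR's quasi-likelihood test, Benjamini-Hochberg over 17162 genes, called the edgeR adjusted p below). Among all genes tested, 7.03% passed between media in HEK293T cells (4.25% higher and 2.78% lower in −Met+Hcy) and 0.00583% did so in R1 cells. The share was 10.2% between the lines in +Met (5.69% higher and 4.48% lower in R1), 14% between the lines in −Met+Hcy (7.2% and 6.76%), and 0.0583% for the difference between the responses of the lines. At an unadjusted p under 0.05 the genes were PEMT and CHKA between media in HEK293T cells, against 22.4% of all genes. CHKA alone met that level between media in R1 cells, against 7.78% of all genes. CHPT1 met it between the lines in +Met (background 26.1%), CHKB and CEPT1 between the lines in −Met+Hcy (29.5%), and no gene did for the difference between responses (9.67%). DESeq2 on the same 12 libraries called PEMT alone, and only between media in HEK293T cells, where it called 13% of all genes. In the other comparisons it called 0.233% of all genes (R1 media), 1.43% (difference between responses), 16.8% (lines in +Met) and 20.6% (lines in −Met+Hcy).

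Without R1 −Met+Hcy replicate 3, several of the genes passed. Between media in HEK293T cells PEMT and CHKA then fell, 2 of 9 genes, against 27.7% of all genes. Between the lines in +Met, PCYT2 and GAMT were then higher and PEMT and CHPT1 lower in R1, 4 of 9 against 32.7%. In −Met+Hcy, PCYT2 and CHKB were then higher and CEPT1 lower in R1, 3 of 9 against 30.3%. In these comparisons the share of the 9 genes was near that of all genes. None of the 9 passed between media in R1 (0.0176% of all genes) or for the difference between responses (1.68%). On library totals, CEPT1 alone passed on all 12 libraries, between media in HEK293T cells, where 11.7% of all genes passed, and no member passed between the lines (15.2% of all genes in +Met and 12.9% in −Met+Hcy). On library totals without replicate 3, the numbers were 3 of 9 between media in HEK293T cells (33.9% of all genes), 4 of 9 between the lines in +Met (40.7%) and 3 of 9 in −Met+Hcy (29.7%). With the GC trend of each library removed, 2 of 9 passed in each of these comparisons on all 12 libraries, against 16%, 19.5% and 24.3% of all genes. They were PEMT and CHKA between media in HEK293T cells, PEMT and PCYT2 between the lines in +Met, and CHKB and CEPT1 between the lines in −Met+Hcy. With replicate 3 also left out the numbers were 5, 4 and 2 of 9, against 31.7%, 35.9% and 32.5%. CHPT1, ICMT and CEPT1 were added between media in HEK293T cells, and CHKA and CHPT1 between the lines in +Met. None of the 9 passed with the GC trend removed between media in R1 or for the difference between responses.

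Levels of different genes were ranked only per kilobase of the canonical transcript. In HEK293T cells in +Met, CHPT1 was the most abundant of the 10 at 65.4 CPM per kilobase, followed by PEMT at 39.0, CEPT1 at 24.4 and CHKB at 24.3. GAMT was at 20.6, ICMT at 9.32 and CHKA at 8.05. PCYT1A and PCYT2, at 4.26 and 4.24 CPM per kilobase, were the lowest of the 9 detected genes in this group. In R1 −Met+Hcy CHKA was the lowest of the 9, at 5.04 CPM per kilobase. CHPT1 led in all 4 groups, with 44.6 to 65.4 CPM per kilobase.

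**Figure D1:**
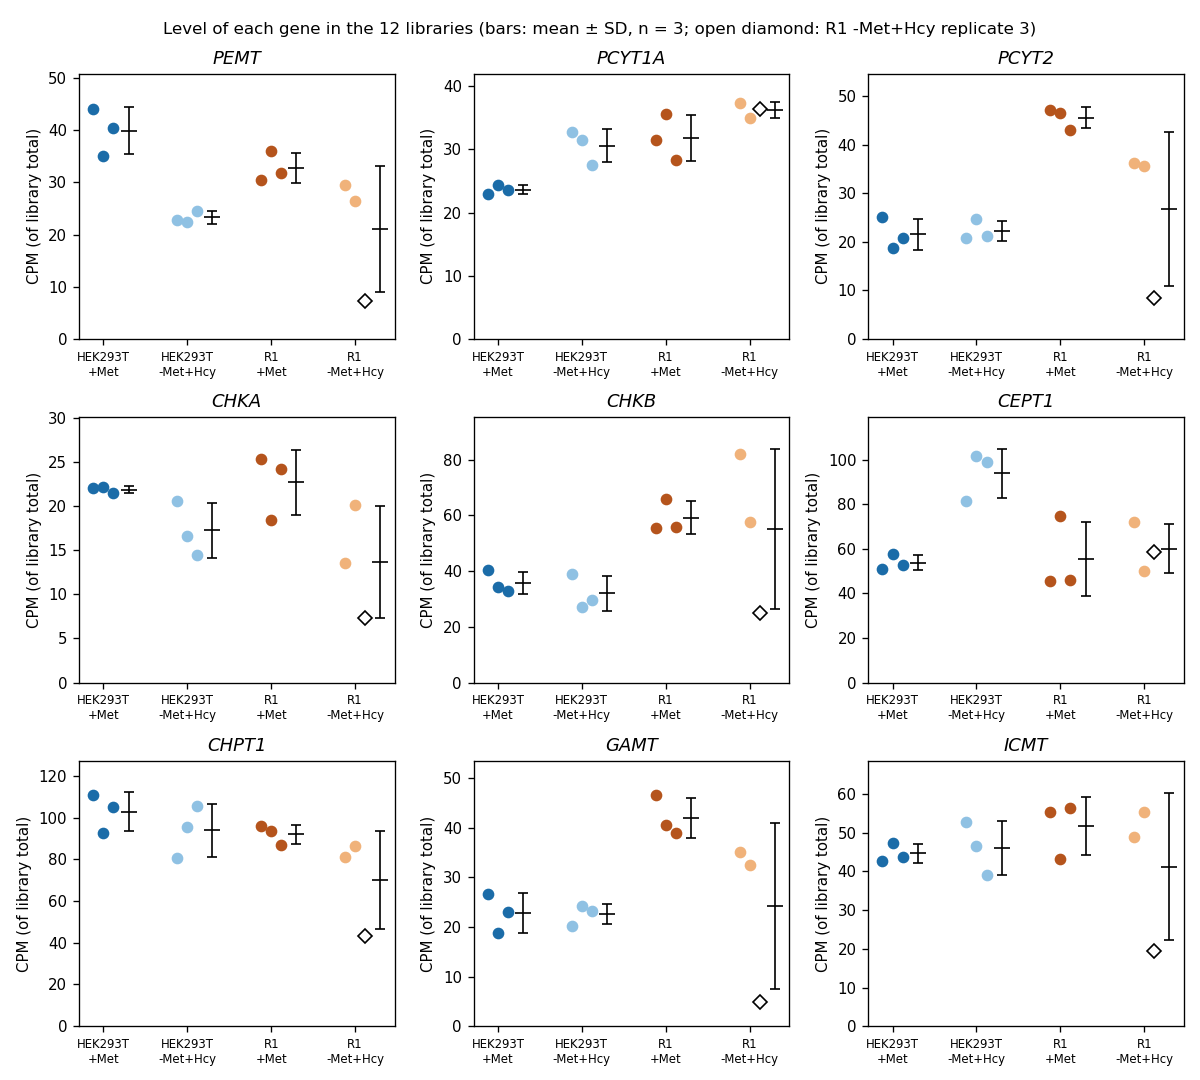
Level in CPM of the library total (vertical axis, from 0) for the 9 detected genes in the 3 libraries of each group, with the mean ± SD beside them. The open diamond, R1 −Met+Hcy replicate 3, lies below the other libraries of its group for 7 genes but not for PCYT1A or CEPT1. PEMT is lower in all 3 HEK293T −Met+Hcy libraries (22.5 to 24.6 CPM) than in +Met (35.1 to 44.1 CPM).

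PEMT, the enzyme of the SAM-dependent route to phosphatidylcholine, lies on the minus strand at chr17:17505563-17591708 (GRCh38). The 250 bases immediately upstream of it are printed because PEMT had the largest log2 fold change between media in HEK293T cells, and those upstream of PCYT2 because that gene had the largest log2 difference between the lines in +Met. Both come from RefSeq (GRCh38.p14) and are written along the strand of the gene, with capitals marking ATTGG, the reverse complement of the CCAAT box.
PEMT, chr17:17591709-17591958, minus strand: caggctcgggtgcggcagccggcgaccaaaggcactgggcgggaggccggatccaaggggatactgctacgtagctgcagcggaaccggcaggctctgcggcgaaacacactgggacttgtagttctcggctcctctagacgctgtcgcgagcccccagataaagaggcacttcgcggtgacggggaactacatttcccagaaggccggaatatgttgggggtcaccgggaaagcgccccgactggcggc
PCYT2, chr17:81911433-81911649, minus strand: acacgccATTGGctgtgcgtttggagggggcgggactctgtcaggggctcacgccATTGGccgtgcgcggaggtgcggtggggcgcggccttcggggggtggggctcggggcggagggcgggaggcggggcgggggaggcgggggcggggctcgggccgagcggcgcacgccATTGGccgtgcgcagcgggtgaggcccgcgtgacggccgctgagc
The PEMT window is 64.4% GC with 23 CG dinucleotides, and the PCYT2 window of 217 bases is 78.8% GC with 30. Of the 10 genes, 7 were matched in the promoter table, with 11 windows. CCAAT, searched on both strands, was found in a window of PCYT2 and one of CHKB, 3 times in each, and 32% of 35116 promoters of the same length hold it. TGATGNAA, the core of the amino acid response element bound by ATF4, occurred in none of the 11 windows and in 3.14% of all promoters. The E-box CACGTG occurred in 1 alternative window of PEMT and in 6.34% of all promoters. That window, the CHKB window and some others lie wholly inside the annotated coordinates of their genes. The PCYT1A window has only 19 bases outside its gene. These matches describe letters and were not tested as binding sites.

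In HEK293T cells, PEMT was at 44.1, 35.1 and 40.3 CPM in +Met and at 22.7, 22.5 and 24.6 CPM in −Met+Hcy. The groups did not overlap, and the spread within −Met+Hcy (SD 1.16, n = 3) was small beside the gap between the means of 39.9 and 23.3 CPM. The log2 fold change was -1.07 (SE 0.346), or 0.476-fold, with an edgeR adjusted p of 0.0859. Without R1 −Met+Hcy replicate 3, which is not part of this comparison but enters the shared estimate of spread, the same log2 fold change had an SE of 0.147 and an edgeR adjusted p of 0.000324. On library totals the log2 fold change was -0.78, with an edgeR adjusted p of 0.209 on all 12 libraries and 0.000896 without that library. With the smooth GC trend of each library removed it was -0.93 on all 12 libraries, with an edgeR adjusted p of 0.00436.

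In R1 cells, PEMT was at 30.4, 36.0 and 31.8 CPM in +Met and at 29.5, 26.4 and 7.30 CPM in −Met+Hcy. The value of replicate 3 in −Met+Hcy lies far under the rest, and replicates 1 and 2 lie just under the +Met range. The log2 fold change was -0.65 (SE 0.344, edgeR adjusted p = 0.63), and -0.27 without replicate 3 (edgeR adjusted p = 0.815). The response of R1 minus that of HEK293T was 0.42 (SE 0.484, edgeR adjusted p = 0.808), and 0.80 (SE 0.218, edgeR adjusted p = 0.0866) without replicate 3. A smaller PEMT response in R1 was therefore not shown at the threshold. In +Met the level in R1 (32.7 ± 2.87 CPM, SD, n = 3) and in HEK293T cells (39.9 ± 4.51) overlapped in range, with a log2 fold change of -0.64 and an edgeR adjusted p of 0.263. Without R1 −Met+Hcy replicate 3 this p became 0.00559, but on library totals the log2 fold change was -0.28 and was not called with or without that library (edgeR adjusted p = 0.644 and 0.101). With the GC trend removed it was -0.82 on all 12 libraries (edgeR adjusted p = 0.00678) and was also called without that library (0.00201).

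CHKA and CHKB are the choline kinases, which trap choline inside the cell. CHKA (chr11:68052859-68121444, minus strand) was at 22.0, 22.1 and 21.4 CPM in HEK293T cells in +Met and at 20.6, 16.6 and 14.5 CPM in −Met+Hcy. All 3 −Met+Hcy libraries lay under the +Met libraries, replicate 1 only slightly. The log2 fold change was -0.64 (SE 0.268, edgeR adjusted p = 0.179), and the edgeR adjusted p without R1 −Met+Hcy replicate 3 was 0.0151. On library totals it was -0.34 and not called with or without that library (edgeR adjusted p = 0.525 and 0.179). In R1 cells CHKA was at 25.3, 18.5 and 24.2 CPM in +Met and at 13.6, 20.1 and 7.35 CPM in −Met+Hcy, and the ranges overlapped. The log2 fold change there was -0.72 (SE 0.269, edgeR adjusted p = 0.622), and -0.47 (edgeR adjusted p = 0.633) without replicate 3.

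CHKB (chr22:50578959-50601455, minus strand), the kinase best known from muscle, was at 40.4, 34.3 and 32.8 CPM in HEK293T +Met and at 39.1, 27.3 and 29.6 CPM in HEK293T −Met+Hcy. The log2 fold change between these media was -0.47 (SE 0.298, edgeR adjusted p = 0.385), and of the alternatives run it was called only on the 6 libraries of the comparison (edgeR adjusted p = 0.038). In R1 cells CHKB was at 55.6, 65.9 and 56.0 CPM in +Met and at 82.2, 57.7 and 25.1 CPM in −Met+Hcy. All R1 libraries other than −Met+Hcy replicate 3 therefore lay above all HEK293T libraries. R1 minus HEK293T in −Met+Hcy was 0.73 on the log2 scale (SE 0.298, edgeR adjusted p = 0.125), and 1.03 (SE 0.193, edgeR adjusted p = 0.00173) without that library. In +Met the difference was 0.37 (edgeR adjusted p = 0.466, and 0.124 without that library). On library totals and without that library, CHKB passed in both media (edgeR adjusted p = 0.00669 in +Met and 0.00105 in −Met+Hcy). CHKB shares sequence with the readthrough gene CHKB-CPT1B, listed at 0 to 6.20 CPM, so part of its estimated count could belong to that gene.

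PCYT1A and PCYT2 are the cytidylyl transferases of choline and ethanolamine. PCYT1A (chr3:196214222-196287957, minus strand) was at 23.0, 24.3 and 23.5 CPM in HEK293T +Met and at 32.7, 31.5 and 27.6 CPM in −Met+Hcy. Every −Met+Hcy library was higher on the CPM scale, but with TMM the groups overlapped and the log2 fold change was 0.08 (SE 0.173, edgeR adjusted p = 0.839). On library totals it was 0.37, with an edgeR adjusted p of 0.166 on all 12 libraries and 0.0416 without R1 −Met+Hcy replicate 3. The median gene moved between the scalings by about as much as PCYT1A did. In R1 cells PCYT1A was at 31.8 ± 3.67 CPM (SD, n = 3) in +Met and 36.2 ± 1.21 in −Met+Hcy, and replicate 3 of the latter, at 36.4 CPM, did not stand apart.

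PCYT2 (chr17:81900958-81911432, minus strand) was at 25.0, 18.8 and 20.9 CPM in HEK293T +Met and at 20.8, 24.7 and 21.2 CPM in −Met+Hcy, and these groups overlapped. In R1 cells it was at 47.1, 46.4 and 43.0 CPM in +Met and at 36.2, 35.6 and 8.47 CPM in −Met+Hcy. The 3 R1 +Met libraries lay above all other libraries. R1 minus HEK293T in +Met was 0.72 on the log2 scale (1.65-fold, SE 0.365, edgeR adjusted p = 0.234), and the edgeR adjusted p was 0.00283 without R1 −Met+Hcy replicate 3. On library totals the log2 difference was 1.08, called without that library (edgeR adjusted p = 0.000107) and not with it (0.0914). In −Met+Hcy the difference was 0.19 (edgeR adjusted p = 0.761), and 0.59 (edgeR adjusted p = 0.016) without that library. With the GC trend removed this difference was not called with or without that library (0.24 and 0.23, edgeR adjusted p = 0.322 and 0.312). Between media in R1 the log2 fold change with TMM was -0.78 (SE 0.365, edgeR adjusted p = 0.622), and -0.39 (edgeR adjusted p = 0.649) without replicate 3.

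The last step of the Kennedy pathway gave opposite signs for its enzymes in HEK293T cells. CEPT1 (chr1:111139479-111185104, plus strand), the enzyme with both choline and ethanolamine activity, was at 51.1, 57.5 and 53.0 CPM in +Met and at 81.3, 101.5 and 98.9 CPM in −Met+Hcy. The groups did not overlap on the CPM scale or with TMM. The log2 fold change was 0.52 (1.43-fold, SE 0.237, edgeR adjusted p = 0.224), and 0.0927 was the edgeR adjusted p without R1 −Met+Hcy replicate 3. On library totals it was 0.80 with an edgeR adjusted p of 0.0361, and 0.0094 without that library. CHPT1 (chr12:101696947-101744140, plus strand), the choline-specific enzyme, was at 110.6, 92.4 and 105.2 CPM in +Met and at 80.4, 95.5 and 105.7 CPM in −Met+Hcy. Its groups overlapped and its log2 fold change was -0.42 (SE 0.218, edgeR adjusted p = 0.279, and 0.0563 without that library).

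In R1 cells neither enzyme passed between media. CEPT1 was at 45.8, 74.5 and 46.2 CPM in +Met and at 71.8, 50.1 and 58.4 CPM in −Met+Hcy, with a log2 fold change of 0.15 (SE 0.237, edgeR adjusted p = 0.818). R1 +Met replicate 2 was the high library there. CHPT1 was at 95.7, 93.4 and 86.6 CPM in +Met and at 81.1, 86.1 and 43.3 CPM in −Met+Hcy (log2 fold change -0.38, edgeR adjusted p = 0.638). Between the lines in −Met+Hcy, CEPT1 was lower in R1 by every library, with a log2 fold change of -0.66 (SE 0.237, edgeR adjusted p = 0.085). It passed without R1 −Met+Hcy replicate 3 (-0.73, edgeR adjusted p = 0.0392) but not on library totals (edgeR adjusted p = 0.0765 and 0.0578). For CEPT1 the response of R1 minus that of HEK293T was -0.36 (SE 0.335, edgeR adjusted p = 0.755). CHPT1 between the lines in +Met was -0.52 (SE 0.218, edgeR adjusted p = 0.156, and 0.0209 without that library), and -0.16 on library totals (0.681 and 0.355).

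**Figure D2:**
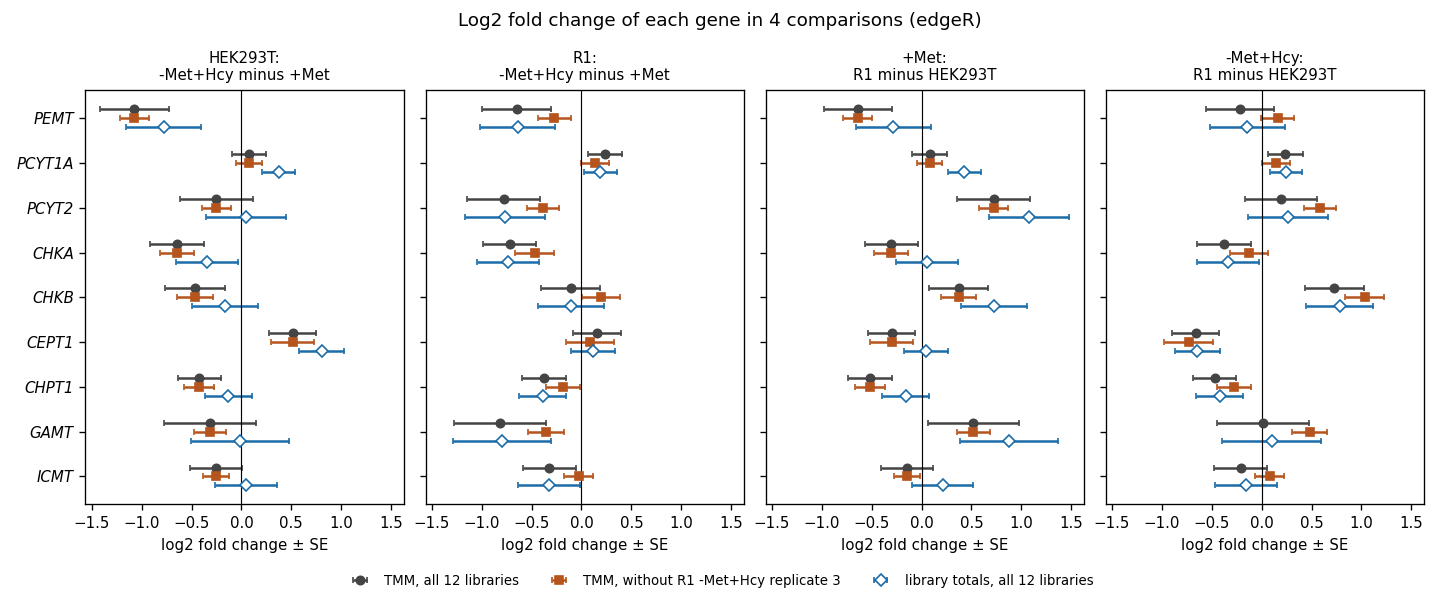
Log2 fold change with its standard error (horizontal axis) of the 9 detected genes in 4 comparisons from edgeR, on TMM scaling with all 12 libraries, on TMM scaling without R1 −Met+Hcy replicate 3, and on library totals. PEMT lies at -1.07 between media in HEK293T cells and at -0.78 on library totals, and library totals move all 9 genes to the right between media in HEK293T cells and between the lines in +Met.

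Ratios of counts within a library do not depend on its scaling. They are not corrected for transcript length, so they compare groups and not the levels of the genes. They are not free of the GC trends of the libraries either, because the genes of a ratio differ in GC content. It is 38.2% for CEPT1 and 49.6% for CHPT1, 53.4% for CHKA and 58.3% for CHKB, and 47% for PCYT1A and 64.4% for PCYT2. The part of base composition in the ratios was not tested. Per kilobase, CEPT1 was at 42.6 CPM and CHPT1 at 59.7 CPM in HEK293T −Met+Hcy. CEPT1 over CHPT1 was 0.462, 0.622 and 0.503 in HEK293T +Met and 1.01, 1.06 and 0.935 in −Met+Hcy, groups that did not overlap. In R1 it was 0.603 ± 0.17 (SD, n = 3) in +Met and 0.885, 0.582 and 1.35 in −Met+Hcy, groups that overlapped. CHKA over CHKB was 0.614 ± 0.06 in HEK293T +Met and 0.542 ± 0.062 in −Met+Hcy, against 0.39 ± 0.095 and 0.269 ± 0.094 in R1. PCYT1A over PCYT2 was 1.11 ± 0.19 and 1.38 ± 0.16 in HEK293T cells and 0.698 ± 0.06 in R1 +Met. In R1 −Met+Hcy it was 1.03 and 0.98 in replicates 1 and 2 but 4.3 in replicate 3. With 3 libraries a group, an exact two-sided permutation test cannot go below p = 0.1, and none is given for the ratios.

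**Figure D3:**
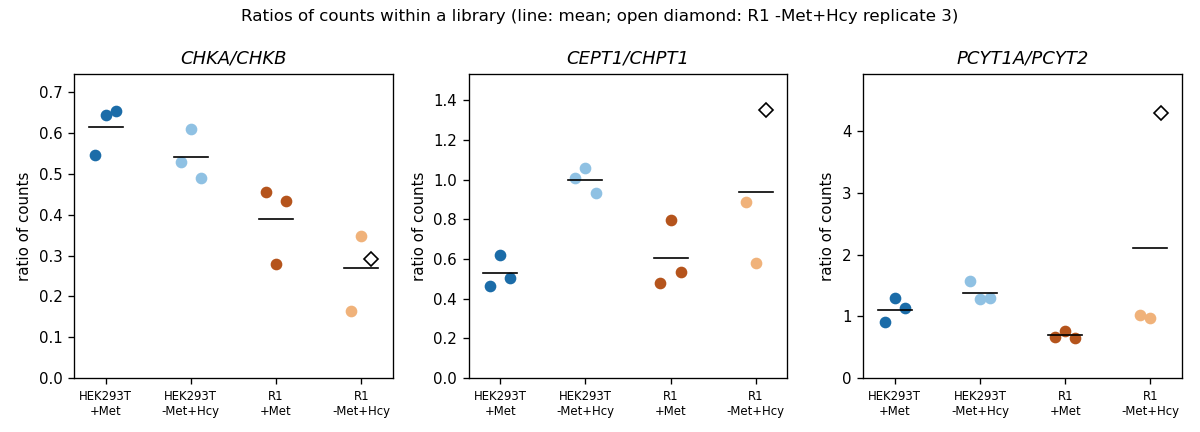
Ratio of the counts of related enzymes within each library, not corrected for transcript length (vertical axis, no unit, from 0), by group, with the group mean as a line. CEPT1/CHPT1 is near 1 in HEK293T −Met+Hcy (0.935 to 1.06) and 0.462 to 0.622 in +Met, and the open diamond at 4.3 for PCYT1A/PCYT2 is R1 −Met+Hcy replicate 3.

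Among the remaining SAM-consuming enzymes, NNMT (chr11:114257787-114313536, plus strand) was practically undetected, with 1 count in replicate 1 of R1 −Met+Hcy, while the other 11 libraries had 0. A count of 0 allows up to 3 counts, or 0.16 to 0.237 CPM in these libraries, by counting error only. No fold change was computed for it.

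GAMT (chr19:1397026-1401570, minus strand) was at 26.7, 18.8 and 22.9 CPM in HEK293T +Met and at 20.3, 24.1 and 23.2 CPM in −Met+Hcy. Its log2 fold change between those media was -0.31 (SE 0.46, edgeR adjusted p = 0.74). In R1 it was at 46.5, 40.4 and 38.9 CPM in +Met and at 35.1, 32.5 and 4.95 CPM in −Met+Hcy. The level in R1 +Met lay above both HEK293T groups in every library, as did replicates 1 and 2 of R1 −Met+Hcy. R1 minus HEK293T in +Met was 0.52 (SE 0.459, edgeR adjusted p = 0.518), and its edgeR adjusted p was 0.0276 without R1 −Met+Hcy replicate 3. In −Met+Hcy it was 0.02 with that library and 0.48 without it (edgeR adjusted p = 0.991 and 0.0631). On library totals without that library GAMT passed in both media (0.88 in +Met and 0.58 in −Met+Hcy, edgeR adjusted p = 0.000787 and 0.0196). With the GC trend removed and that library left out it passed in neither (0.26 and 0.10, edgeR adjusted p = 0.213 and 0.709).

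ICMT (chr1:6221193-6235972, minus strand) showed no call in edgeR with or without R1 −Met+Hcy replicate 3, on either scaling. With the GC trend removed and that library left out, it fell between media in HEK293T cells (-0.34, edgeR adjusted p = 0.0317). It was at 44.7 ± 2.41 CPM in HEK293T +Met, 46.0 ± 6.90 in HEK293T −Met+Hcy and 51.7 ± 7.42 in R1 +Met (SD, n = 3). In R1 −Met+Hcy it was at 49.0, 55.2 and 19.6 CPM. The ranges of all 4 groups overlapped with those of their neighbours in order of level.

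R1 −Met+Hcy replicate 3 departed from replicates 1 and 2 by an amount that varied with the GC content of the transcript. With TMM, the difference in log2 CPM was 0.22 for CEPT1 (38.2% GC) and 0.27 for PCYT1A (47%). It was -0.69 for CHPT1 (49.6%), -1.14 for ICMT (49.9%), -0.90 for CHKA (53.4%) and -1.19 for CHKB (58.3%). The GC-rich PEMT (62.6%), PCYT2 (64.4%) and GAMT (66%) differed by -1.66, -1.81 and -2.48. The part of base composition in these differences was not tested.

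**Figure D4:**
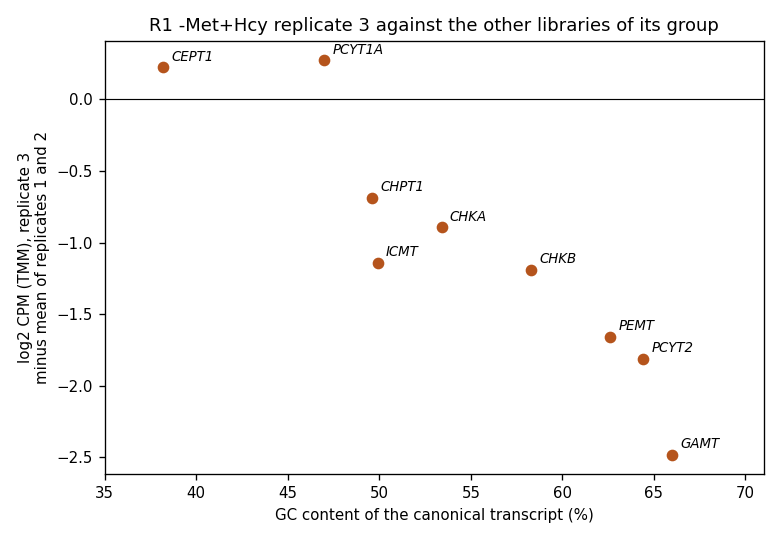
Log2 CPM (TMM) of R1 −Met+Hcy replicate 3 minus the mean of replicates 1 and 2 (vertical axis) against the GC content of the canonical transcript in percent (horizontal axis), 1 point per gene. CEPT1 and PCYT1A lie slightly above 0, and GAMT, at 66% GC, lies lowest at -2.48.

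Between media in HEK293T cells, 2 of the 9 genes were higher (CEPT1 and PCYT1A) and 2 lower (PEMT and CHKA) in every −Met+Hcy library on the CPM scale, against 38.6% and 9.8% of all genes. In R1 cells none was higher and 4 were lower (PEMT, PCYT2, CHPT1 and GAMT), against 5.22% and 4.87%, although none of these passed the test. Between the lines in +Met 4 were higher in R1 (PCYT1A, PCYT2, CHKB and GAMT) and none lower, against 38.1% and 9.15%. In −Met+Hcy PCYT1A was higher and CEPT1 lower, against 13.9% and 17.8%. The median log2 fold change of the 9 genes was -0.31 between media in HEK293T cells, with 0.03 for all genes, and -0.38 in R1 cells, with -0.02 for all genes. Without R1 −Met+Hcy replicate 3 the R1 median was -0.18.

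Some other genes of the same pathways passed between media in HEK293T cells on all 12 libraries. Of 29 tested genes of choline and ethanolamine lipid metabolism, 2 rose and 3 fell in −Met+Hcy, against 4.25% and 2.78% of all genes, and their median log2 fold change was -0.05. SLC44A2, a choline transporter-like protein, fell from 20.2 ± 3.95 to 7.72 ± 1.58 CPM (log2 fold change -1.69, edgeR adjusted p = 0.0126). LPCAT4, a lysophospholipid acyltransferase, fell from 26.8 ± 1.56 to 13.9 ± 1.38 CPM (-1.24, edgeR adjusted p = 0.00681). PTDSS2, a phosphatidylserine synthase, fell from 45.9 ± 3.10 to 30.4 ± 2.74 CPM (-0.89, edgeR adjusted p = 0.0498). On library totals it was not called on all 12 libraries (edgeR adjusted p = 0.2) but was without R1 −Met+Hcy replicate 3 (0.00508). A second entry of this symbol, with 75 counts against 7415, could take some of its reads. GPCPD1, which breaks glycerophosphocholine down, rose from 19.1 ± 3.43 to 39.9 ± 1.33 CPM (0.77, edgeR adjusted p = 0.0229). FLVCR2, a choline transporter, rose from 1.55 ± 0.127 to 4.24 ± 0.582 CPM (1.15, edgeR adjusted p = 0.0392). Without R1 −Met+Hcy replicate 3, 2 rose and 8 fell, against 15.2% and 12.5% of all genes.

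Of 11 tested small-molecule methyltransferases, 1 rose in HEK293T cells and none fell, against 4.25% higher and 2.78% lower among all genes, with a median log2 fold change of 0.02. TMT1A, an alkyl thiol methyltransferase, went from 5.08 ± 0.747 to 15.9 ± 2.96 CPM (1.35, edgeR adjusted p = 0.0392). With the GC trend removed TMT1A was not called on all 12 libraries, but it was called with R1 −Met+Hcy replicate 3 also left out. Of 13 genes of creatine and nicotinamide metabolism, 2 rose and none fell against the same background, with a median of -0.11. GATM, which makes the substrate of GAMT, rose from 0.356 ± 0.223 to 2.38 ± 1.27 CPM (2.43, edgeR adjusted p = 0.0338), and NMNAT1, an NAD synthesis enzyme, rose by 1.08 (edgeR adjusted p = 0.0135). The +Met libraries were near the floor for GATM, at 0.2055 to 0.6121 CPM, and the −Met+Hcy libraries ran from 0.9116 to 3.159 CPM. Of 9 prenyl processing genes, RABGGTB alone fell, by 1.71 on the log2 scale (edgeR adjusted p = 0.00346), and none rose against that background, with a median of 0.16. RABGGTB encodes a subunit of the enzyme that prenylates Rab proteins. None of the genes in the 4 lists passed between media in R1 cells or for the difference between responses on all 12 libraries, where 1 and 10 of all genes passed. Of these 62 list genes, 5 and 4 had an unadjusted p under 0.05, against 7.78% and 9.67% of all genes. DESeq2 called none between media in R1 (0.233% of all genes) but LPCAT4 and RABGGTB for the difference between responses (1.43%). Without R1 −Met+Hcy replicate 3, the differences between responses of SLC44A2 (1.41, edgeR adjusted p = 0.0245) and LPCAT4 (1.26, edgeR adjusted p = 0.00485) passed, against 1.68% of all genes, and the other lists had none.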

How the data were processed

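RNA from HEK293T and R1 cells, 3 libraries per group, was sequenced by the authors, who quantified the reads with kallisto 0.48.0 against GRCh38, per the labels. The deposited values are estimated counts per Ensembl gene, stored as whole numbers with no scaling found in them; the annotation release and strandedness are not given in the sources used here. Of 23500 genes listed, 868 have no symbol.

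Genes with a summed count of at least 10 (17162) were fitted with edgeR 4.0.16 in R 4.3.3, using TMM factors, a mean for each of 4 groups and 8 residual degrees of freedom. edgeR's quasi-likelihood test was adjusted by the Benjamini-Hochberg method across these genes, with a threshold of 0.05. Compared were −Met+Hcy and +Met within each line, R1 against HEK293T in each medium, and the difference between responses. Coordinates, lengths and GC content come from GENCODE 44, canonical transcript.

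The genes and lists were chosen with earlier results of these data known. Values are given for every member, for list genes that passed in the HEK293T medium comparison, and for some list genes that passed between the lines. Alternatives were DESeq2 1.42.0, other scalings and filters, the replicate block, the 6 libraries of a comparison, removal of the GC trend and each library left out. Scaling by library totals was chosen after seeing the data. The procedure was also run on simulated counts, drawn with the smaller spread estimated without R1 −Met+Hcy replicate 3. Of genes given a log2 change of 0.75, 1 or 2 in HEK293T −Met+Hcy, 28.8%, 68.7% and 100% were called. The simulation does not check the procedure at the spread of all 12 libraries.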

Additional observations from a re-analysis of the deposited data

How the results depend on the processing

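The replicate numbers are not said to pair libraries. Same-numbered libraries of different groups correlated above 0.1 in 6 of 18 pairs, with values from -0.72 to 0.6. In 36 comparisons of a library with the 3 of another group, the correlation was highest with its own number in 9. Because the libraries carry GC trends of their own, these correlations cannot settle whether the design was paired. With the replicate number as a block, no member was called, and the block lowered the calls over all genes from 1207 to 618 between media in HEK293T cells. It turned GAMT between the lines in −Met+Hcy to -0.12. R1 −Met+Hcy replicate 3 is called replicate 3 here.

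With each library left out in turn, the members called lower between media in HEK293T cells numbered 0 to 2, between the lines in +Met 0 to 2 higher and 0 to 2 lower, and in −Met+Hcy 0 to 2 higher and 0 to 1 lower. The 1 lower was CEPT1, without R1 −Met+Hcy replicate 3 or without R1 +Met replicate 2. For HEK293T media, members called higher and lower were 0 and 2 with the GC trend removed, 1 and 4 with it removed and replicate 3 left out, 1 and 0 on library totals, 2 and 1 on library totals without replicate 3, 1 and 3 on the 6 libraries of the comparison, and 0 and 1 by DESeq2. Between the lines in +Met the same pairs were 1 and 1 with the GC trend removed, 1 and 3 also without replicate 3, 4 and 0 on library totals without replicate 3, and 2 and 2 on 6 libraries. In −Met+Hcy they were 1 and 1, 1 and 1, and 3 and 0 for the first 3 of these settings.

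Signs turned for small values. On library totals, with and without replicate 3, PCYT2 became 0.0445 and 0.0446 and ICMT 0.0439 and 0.0438 between media in HEK293T cells. Between the lines in +Met, CHKA became 0.0531 and 0.0522, CEPT1 0.0441 and 0.0450, and ICMT 0.210 and 0.209. For the difference between responses, PCYT1A became -0.186 and -0.191 and CHPT1 -0.260 and -0.00594. On library totals without replicate 3, ICMT became 0.0129 and CHKB 0.241 between media in R1, and PEMT 0.265 and ICMT 0.178 between the lines in −Met+Hcy. With the GC trend removed, CHKB became 0.115 and CEPT1 -0.128 between media in R1, CHKA 0.0366 for the difference between responses, and GAMT -0.0162 between the lines in −Met+Hcy. With replicate 3 also left out, CHKB became 0.205 between media in R1, CHKA 0.195 and ICMT 0.296 for the difference between responses, and ICMT 0.0970 between the lines in −Met+Hcy.

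With each library left out, the log2 fold change of CHKB between media in R1 ran from -0.478 to 0.195. For the difference between responses, CHKA ran from -0.414 to 0.175, CHKB from -0.0123 to 0.661, CHPT1 from -0.0876 to 0.241 and ICMT from -0.296 to 0.227. PCYT1A between the lines in +Met ran from -0.0336 to 0.170. Between the lines in −Met+Hcy, PEMT ran from -0.512 to 0.160, PCYT2 from -0.0639 to 0.587, GAMT from -0.338 to 0.479 and ICMT from -0.442 to 0.0810. The cause of these turns was not tested.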

Other observations

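Genes around the members differed between the lines on all 12 libraries. In the lipid list, 5 of 29 genes were higher and 1 lower in R1 in +Met, against 5.69% and 4.48% of all genes, and 8 were higher and 1 lower in −Met+Hcy, against 7.2% and 6.76%. PLD1, which releases choline from phosphatidylcholine, was at 1.35 ± 0.238 CPM in HEK293T +Met and 8.43 ± 0.997 in R1 +Met (log2 difference 2.29, edgeR adjusted p = 0.0012). PCYT1B, the second choline cytidylyl transferase, was at 1.02 ± 0.465 and 4.53 ± 1.16 CPM (1.79, edgeR adjusted p = 0.0284), and both were also higher in R1 in −Met+Hcy (edgeR adjusted p = 0.0012 and 0.00335). In −Met+Hcy the choline transporter-like genes SLC44A1 and SLC44A2 were higher in R1 by 0.89 and 1.59 (edgeR adjusted p = 0.00667 and 0.00902). The 1 lower gene in −Met+Hcy was FLVCR1, at 70.1 ± 5.93 CPM in HEK293T and 35.5 ± 11.7 in R1 (-1.03, edgeR adjusted p = 0.00762). In +Met the 1 lower gene was PTDSS1, at 293.7 ± 22.8 and 196.6 ± 37.3 CPM (-0.93, edgeR adjusted p = 0.0167).

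Of the 11 tested methyltransferases, 2 were higher (AS3MT and TMT1A) and 1 lower (COQ3) in R1 in +Met, against 5.69% and 4.48% of all genes, and 1 was higher (AS3MT) and 1 lower (COQ3) in −Met+Hcy, against 7.2% and 6.76%. TMT1A was at 5.08 ± 0.747 CPM in HEK293T and 15.2 ± 1.95 in R1 in +Met (1.23, edgeR adjusted p = 0.0449). AS3MT, the arsenite methyltransferase, was higher in R1 in both media (log2 difference 1.02 in +Met and 1.57 in −Met+Hcy, edgeR adjusted p = 0.0164 and 0.00126). COQ3, a methyltransferase of ubiquinone synthesis, was at 65.2 ± 5.76 CPM in HEK293T and 32.8 ± 8.64 in R1 in +Met (-1.34, edgeR adjusted p = 0.00681) and also lower in −Met+Hcy (-0.94, edgeR adjusted p = 0.0281).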
